A study of Mus musculus with 12 samples.

Results

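The 10 genes described here (Arntl, Clock, Npas2, Per1, Per2, Per3, Cry1, Cry2, Nr1d1 and Dbp) make up the core of the mammalian circadian clock and its nearest output. They were chosen by name, and each stands with every probe set that the annotation of the Affymetrix mouse genome array assigns to that gene alone. This gave 21 probe sets, of 29409 in the deposited table, and the 10 genes are among 13710 with a single-gene probe set there. Arntl, also named Bmal1, is listed under both symbols in reference annotations and is called Arntl here.

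The mice were males of the FVB/N strain and gave total RNA of liver and of lung after being fed a torula yeast diet deficient in selenium from weaning on, for 6 weeks. The diet had 0.1 ppm selenium added as sodium selenite (0.1 Se) or none (0 Se), so both diet groups ate the same deficient base diet. The 4 groups were 0.1 Se liver, 0 Se liver, 0.1 Se lung and 0 Se lung, each with 3 arrays that the labels call biological replicates. The mice carried no engineered allele, the hour at which tissues were taken is not given in the sources used here, and the labels do not say whether a liver and a lung of the same number came from one mouse.

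Values are log2 of the array signal, so a difference of 1 is a 2-fold difference. The deposited values ran from 6.64 (a signal of 100) to 16.4, and a blank can be an absent call or a signal under 100. Arrays listed 17235 to 17923 probe sets in liver and 22197 to 22718 in lung. The labelled tissues were checked against markers. In liver, 4 of 5 hepatocyte markers (Alb, Apoa1, Ttr and Cyp2e1) were listed on every liver array, and 4 of 5 markers of alveolar and airway epithelium on none. In lung, the 5 epithelial markers (Sftpc, Sftpa1, Sftpb, Ager and Scgb1a1) were listed on all arrays. Lung arrays also listed 4 of 5 cardiac muscle markers (Myh6, Tnnt2, Myl7 and Actc1), with a log2 summed level of 11.87 to 13.93 in 0.1 Se lung and 11.76 to 14.71 in 0 Se lung.

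The clock is a feedback loop of transcription. Arntl pairs with Clock, or with its relative Npas2, and the pair binds E-boxes in the promoters of the Per and Cry genes, of Nr1d1 and of Dbp. PER and CRY proteins then return to the nucleus and hold the activators down, while NR1D1 (Rev-erb alpha) represses Arntl and DBP acts on D-boxes in other clock genes and in metabolic genes. As a consequence Arntl and Npas2 transcripts peak at nearly the opposite time of day to Dbp and Nr1d1, in liver and in lung alike, and most Clock transcript changes little over the day. A tissue taken at another hour can therefore show Arntl and Npas2 displaced against such targets, while Clock need not move.

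Letters of the elements through which the members act on each other were searched in their own promoters. A match of letters does not show that a protein binds there. RefSeq promoters (mouse build GRCm38.p6, 300 bases each, from 250 before the annotated start) were found for 9 of the members, with 1 to 3 promoters a gene. Per2 is not in the table. The letters searched on both strands were CACGTG (the E-box), CACGTT (a variant E-box), TTATGTAA or TTACGTAA (the D-box), TAGGTCA (the element bound by Rev-erb and ROR receptors) and TGACGTCA (the cAMP response element). The windows of 28 bases below show each match, with the matched letters in capitals and all sequences written 5′ to 3′ on the strand of the gene.
Arntl, Rev-erb and ROR element, chr7:113207530-113207557, plus strand: aaggcagaaagTAGGTCAgggacggagg
Per1, E-box, chr11:69098772-69098799, plus strand: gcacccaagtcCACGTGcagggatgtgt
Cry1, E-box, chr10:85185098-85185125, minus strand: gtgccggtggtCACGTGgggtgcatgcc
Cry1, variant E-box, chr10:85185117-85185144, minus strand: cacacttcagaAACGTGaggtgccggtg
Cry2, variant E-box, chr2:92434219-92434246, minus strand: cacatggtgggAACGTGagggggcggag
Nr1d1, variant E-box, chr11:98775389-98775416, minus strand: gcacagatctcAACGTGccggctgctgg
Per3, first D-box, chr4:151044854-151044881, minus strand: cgacccgcgcgTTATGTAAggtactcgg
Per3, second D-box, chr4:151044807-151044834, minus strand: cccgcccgcggTTATGTAAcccccgccg

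Counted from the annotated start, the matches began at 30 in Arntl, -166 in Per1, -60 and -79 in Cry1, -166 in Cry2, -28 in Nr1d1, and -205 and -158 in Per3. The variant E-boxes of Cry1, Cry2 and Nr1d1 were read on the opposite strand and so appear as AACGTG, and the windows of the Cry1 pair overlap while their matched letters do not. Of 32851 promoters in the table, 7.15% held CACGTG, 4.68% CACGTT, 1.06% a D-box, 2.61% TAGGTCA and 1.79% TGACGTCA. Per3 thus showed 2 matches of the motif that was rarest in the table. In these windows the promoters of Clock, Npas2 and Dbp had none of the letters searched.

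Whether dietary selenium changed the clock genes was asked first in liver. No member differed between the diets there past adjustment. A probe set was tested where each diet had at least 2 values, which left 14 of the 21 probe sets and 7 of the 10 genes (Clock, Per1, Per2, Per3, Cry1, Cry2 and Dbp). By limma with Benjamini-Hochberg adjustment over all 16575 probe sets tested, 0 of the 14 passed 0.05 (adjusted p from 0.825 to 0.991), where the share called over all probe sets was 0.0121%. At an unadjusted p under 0.05 there were also 0, against 6.65% of all. The methods' t-test gave 0 as well. The arrays of the diets overlapped in each member probe set listed on all 6 arrays, where 12.2% of all such probe sets did not overlap. Log2 differences (0.1 Se minus 0 Se) ran from -0.27 to 0.31, with a median of -0.07 beside 0 for all probe sets.

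Of the activators in liver, Clock, the DNA-binding partner of Arntl, was listed on every array by 3 of its 4 probe sets. Probe set 1418659_at had log2 signals of 9.24, 9.53 and 8.84 in 0.1 Se liver and 9.47, 9.55 and 9.38 in 0 Se liver. The third 0.1 Se array stood below the other 5, and the diets overlapped (difference -0.26 ± 0.18 SE, limma adjusted p = 0.846, 95% interval -0.67 to 0.14). Without 0.1 Se liver replicate 2 the difference was -0.43, and without 0.1 Se liver replicate 3 it was -0.08. Probe sets 1418660_at and 1435775_at gave -0.24 ± 0.20 and -0.08 ± 0.29. Arntl was near the lower limit of the table: 1425099_a_at was listed at 7.58, 7.41 and 6.81 in 0.1 Se liver, and only at 7.13 on the first array in 0 Se liver, the other two being blank. It could not be tested in liver. With blanks set at the lowest value of the table it differed by 0.46 ± 0.24 (adjusted p = 0.849). Npas2, which can replace Clock, was blank on the liver arrays of both diets.

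Among the targets of the activators, Dbp, a PAR bZIP transcription factor whose transcript is among the most strongly rhythmic in liver, had log2 signals of 12.40, 12.73 and 13.09 in 0.1 Se liver and 12.80, 13.15 and 13.07 in 0 Se liver by 1438211_s_at. The 0.1 Se arrays spread wider, and the highest of them lay within the 0 Se range (difference -0.27 ± 0.16, limma adjusted p = 0.825, 95% interval -0.62 to 0.09). Its other probe set, 1418174_at, gave -0.21 ± 0.17. A suffix _s_at or _a_at marks probes that can bind more than one transcript, so the gene name of 1438211_s_at is less certain, while 1418174_at has no such suffix.

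Per1, a period gene that light and hormones induce within a short time, read 9.48, 9.34 and 9.31 in 0.1 Se liver and 8.31, 9.26 and 9.77 in 0 Se liver. All 3 arrays of 0.1 Se lay inside the range of the 0 Se arrays, of which the first was low and the third high (0.26 ± 0.30, adjusted p = 0.902). Per2, whose protein is a scaffold of the repressor complex, read 10.18, 9.19 and 10.10 in 0.1 Se liver and 9.94, 9.42 and 9.70 in 0 Se liver by 1417602_at. Here it was the second 0.1 Se array that stood low (0.14 ± 0.25, adjusted p = 0.944). The other Per2 probe sets gave 0.31 ± 0.22 for 1417603_at, with 3 values in 0.1 Se and 2 in 0 Se, and -0.06 ± 0.27 for 1457350_at. Per3, a period gene whose loss leaves the loop running, was at 9.75, 9.33 and 10.04 in 0.1 Se liver and 9.56, 9.71 and 9.79 in 0 Se liver by 1421087_at. Its 3 tested probe sets differed by 0.02 to 0.28. Nr1d1 was listed on a single liver array, at 7.95 on the second of 0.1 Se.

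The cryptochromes, which inhibit the activators directly, had small differences in liver. Cry1 averaged 8.84 ± 0.25 (SD, n = 3) in 0.1 Se liver and 8.95 ± 0.11 (n = 3) in 0 Se liver, a difference of -0.11 ± 0.17 SE by limma (adjusted p = 0.937). Cry2 averaged 8.70 ± 0.24 in 0.1 Se liver and 8.92 ± 0.36 in 0 Se liver, with -0.22 ± 0.21 (adjusted p = 0.884). The 95% intervals reached from -0.49 to 0.28 for Cry1 and from -0.68 to 0.25 for Cry2, and differences within these intervals are not excluded. Cry2 ran from -0.42 (without 0 Se liver replicate 2) to -0.08 (without 0 Se liver replicate 1).

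**Figure D1:**
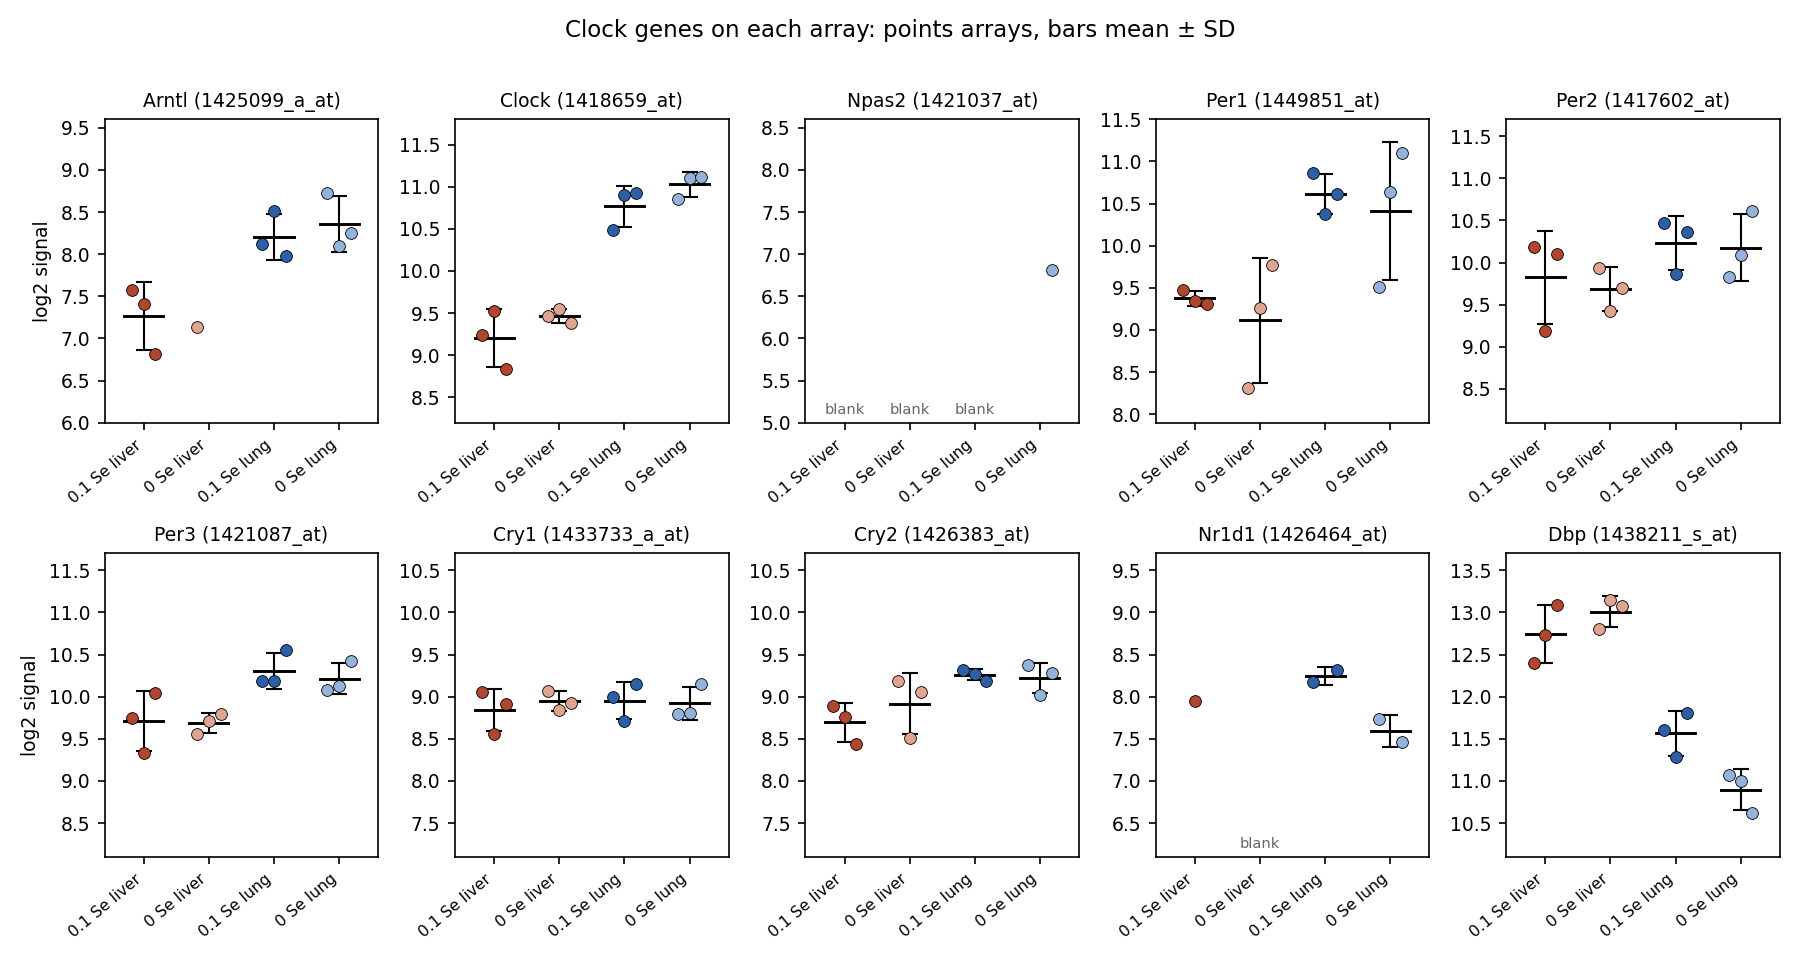
Log2 signal (y axis, with the same span but another origin in each panel) of each member on each array, by the probe set with its highest mean signal, in 0.1 Se liver, 0 Se liver, 0.1 Se lung and 0 Se lung (x axis). Points are arrays in replicate order, horizontal bars means and whiskers SD over 3 arrays (2 for Nr1d1 in lung), and "blank" marks groups without a value; the 0.1 Se lung points of Dbp (11.28 to 11.81) lie above the 0 Se lung points (10.62 to 11.07), while for Dbp in liver and in the other panels with 3 points in both diets of a tissue the points overlap.

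In lung the same comparison gave no call past adjustment either, but Dbp had the smallest p of the members. Here 18 of 21 probe sets and 9 genes could be tested (all but Npas2), and 0 passed the limma test over 21655 probe sets (adjusted p from 0.218 to 0.974), where 0.0924% of all passed. At an unadjusted p under 0.05 there were 3 of 18, both Dbp probe sets and Nr1d1, beside 7.67% of all probe sets. The methods' t-test, unadjusted, took 1 (Dbp 1438211_s_at) and after Benjamini-Hochberg adjustment 0. Of the 18 tested, 2 member probe sets did not overlap between the diets (one of Dbp and one of Per3). Nr1d1, which had blanks, was not counted. This is no larger a share than the 12.9% of all probe sets with a value on each lung array. Differences ran from -0.30 to 0.67 with a median of 0.09, beside -0.01 for all.

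Dbp in lung read 11.61, 11.28 and 11.81 with 0.1 Se and 11.07, 11 and 10.62 with 0 Se by 1438211_s_at. Each 0.1 Se array was above each 0 Se array. The difference was 0.67 ± 0.15, or 1.59-fold, with an unadjusted p of 0.001 and an adjusted p of 0.218 by limma. By 1418174_at it read 10.27, 9.75 and 10.41 in 0.1 Se lung and 9.76, 9.97 and 9.44 in 0 Se lung, where the second 0.1 Se array lay among the 0 Se arrays (0.42 ± 0.18, adjusted p = 0.623). Leaving out single arrays or changing the settings kept the difference of 1438211_s_at between 0.53 and 0.82, with adjusted p from 0.0661 to 0.488.

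Nr1d1, the nuclear receptor that represses Arntl and shares its activators with Dbp, was listed in lung at 8.17 and 8.32 with 0.1 Se and at 7.73 and 7.46 with 0 Se, the second array being blank in both diets. The difference over these 2 and 2 arrays was 0.65 ± 0.21, or 1.57-fold (limma unadjusted p = 0.0129, adjusted p = 0.466). With blanks at the lowest value it was 0.43 (adjusted p = 0.877). The period genes are under the same activators. Per1 in lung read 10.86, 10.38 and 10.61 with 0.1 Se and 9.51, 10.64 and 11.10 with 0 Se, so that the 0 Se arrays lay on both sides of the 0.1 Se arrays (0.20 ± 0.31, adjusted p = 0.923).

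Per2 in lung read 10.47, 9.87 and 10.36 with 0.1 Se and 9.83, 10.09 and 10.61 with 0 Se by 1417602_at (0.06 ± 0.20, limma adjusted p = 0.966). Its 2 other probe sets gave -0.12 ± 0.20 and -0.30 ± 0.27. The arrays of the diets were interleaved. Per3 had positive differences in all 5 of its probe sets, from 0.10 ± 0.13 (1421087_at) to 0.40 ± 0.22 (1441445_at), with adjusted p from 0.71 to 0.912. Probe set 1442243_at read 8.42, 8.41 and 8.58 in 0.1 Se lung and 8.0, 8.17 and 8.35 in 0 Se lung, without overlap (0.30 ± 0.15, adjusted p = 0.71). The 5 probe sets share their RNA and their gene and are not separate measurements of the diet.

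The activators in lung had small differences. Arntl was listed on all 6 lung arrays, at 8.12, 8.51 and 7.98 with 0.1 Se and 8.73, 8.10 and 8.25 with 0 Se (-0.15 ± 0.20, limma adjusted p = 0.906). The diets overlapped, with the highest value on the first 0 Se array. Clock read 10.49, 10.90 and 10.92 in 0.1 Se lung and 10.86, 11.10 and 11.12 in 0 Se lung by 1418659_at (-0.25 ± 0.13, adjusted p = 0.701), while 1418660_at gave 0.09 ± 0.11 and 1435775_at -0.27 ± 0.14. A further probe set of Clock, 1439314_at, was listed on 1 array in 0.1 Se lung (7.19) and on 3 arrays in 0 Se lung (6.79 to 7.31), too few to test. The second Arntl probe set was listed on 1 array of each diet and Npas2 only on the third 0 Se array (6.81). Cry1 and Cry2 differed by 0.04 ± 0.16 and 0.03 ± 0.13 in lung (adjusted p = 0.974 and 0.969).

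**Figure D2:**
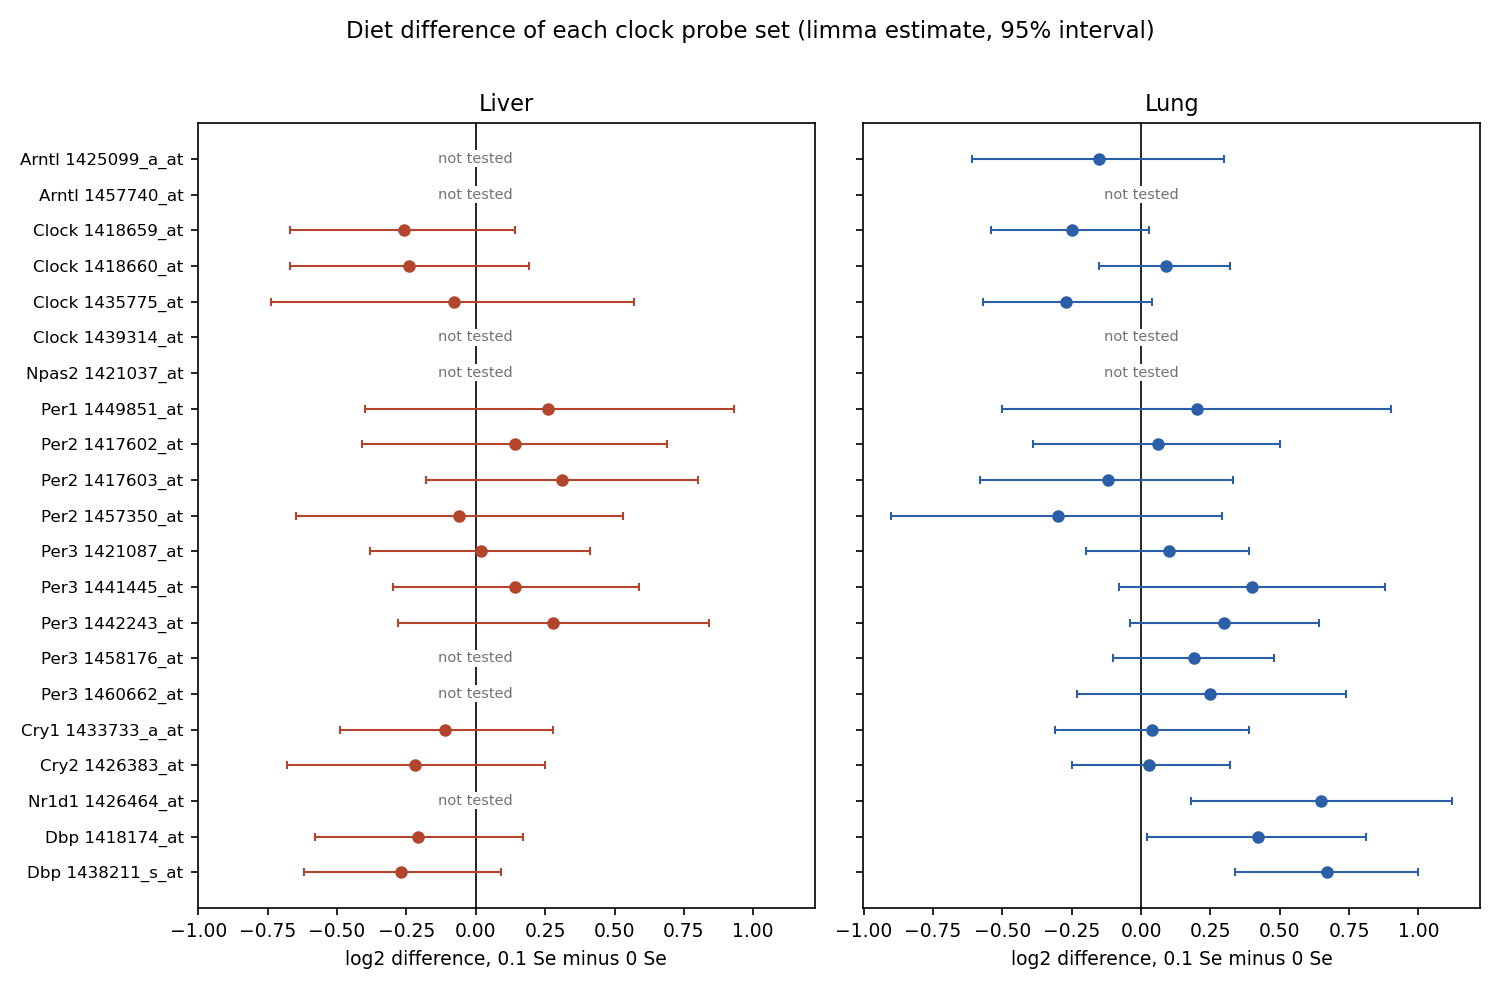
Log2 difference of 0.1 Se minus 0 Se (x axis) for each of the 21 member probe sets (rows), in liver (left) and lung (right), with limma estimates as points and 95% intervals as bars. In liver the 14 intervals all include 0, and in lung those of Nr1d1 (0.65) and the Dbp probe sets (0.42 and 0.67) do not include 0 before adjustment.

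In bulk tissue a lower signal can come from fewer cells of a type or from less RNA per cell, and these cannot be told apart. Summed levels of some marker lists did not overlap between the diets, and the lists below are named for that. Hepatocyte sums overlapped in both tissues. In lung, sums of epithelial, cardiac muscle, macrophage and lymphocyte markers overlapped too. The other liver lists had arrays without a listed marker. Among all single probe sets listed on every array of a tissue, 12.2% in liver and 12.9% in lung did not overlap. In lung, the neutrophil markers (3 of 5 tested, 3 above 0, median difference 1.64) had log2 summed levels of 12.02 to 14.05 in 0.1 Se and 10.19 to 11.53 in 0 Se, with Cxcr2 listed on 1 array and Retnlg on none. In liver, the 5 macrophage and Kupffer cell markers had 12.90 to 13.19 in 0.1 Se and 12.49 to 12.82 in 0 Se. Erythroid markers in lung (2 of 5 tested) had 11.12 to 11.31 in 0.1 Se and 10.37 to 10.86 in 0 Se. None of these markers passed the limma test for diet. Their part in the differences of Dbp and Nr1d1 was not tested.

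The response to diet was then compared between the tissues, liver difference minus lung difference, over the 12 arrays. Of 14 member probe sets 0 were called, as were 0% of all 15112 probe sets tested by limma, and 2 had an unadjusted p under 0.05, beside 6.16% of all. Both were Dbp. For 1438211_s_at the difference of differences was -0.94 ± 0.25 (unadjusted p = 0.00181, adjusted p = 0.61) and for 1418174_at -0.62 ± 0.28 (adjusted p = 0.773). The diet values of Dbp were negative in liver and positive in lung, but the liver values depend on 1 array: without 0.1 Se liver replicate 1 they were -0.10 for 1438211_s_at and 0.03 for 1418174_at. Over the alternatives the difference of differences ran from -1.12 to -0.77 for 1438211_s_at (limma adjusted p from 0.275 to 0.968). For 1418174_at it ran from -0.82 to -0.39 (limma adjusted p from 0.546 to 0.986). For the other 12 probe sets the values lay between -0.33 and 0.44.

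Liver and lung differed in most of the members, as in most of the transcriptome. Over the 12 arrays, 10 of 14 member probe sets passed the limma test of liver minus lung, 2 higher and 8 lower in liver, where 81.6% of all probe sets passed (33.9% higher and 47.7% lower in liver). The members' median was -0.44, beside -0.18 for all probe sets. The median of all depends on the scaling: it was 0.02 after median centring of the arrays and -0.45 after quantile normalization. Among all probe sets called, 41.6% were higher in liver with the deposited values, 50.8% after median centring and 31.3% after quantile normalization, so small differences between the tissues have no fixed direction. Taking 1 probe set for each gene, 6 of 7 genes passed.

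Dbp was the member that was higher in liver. Its mean log2 signal was 12.74 ± 0.35 (SD, n = 3) in 0.1 Se liver and 13.01 ± 0.18 in 0 Se liver, and 11.57 ± 0.27 in 0.1 Se lung and 10.90 ± 0.24 in 0 Se lung. Each liver array exceeded each lung array. The difference was 1.64 ± 0.12 SE, or 3.12-fold (limma adjusted p = 5.55e-09), and 1.75 ± 0.14 by 1418174_at (adjusted p = 9.94e-09). Over the alternatives it stayed between 1.05 and 1.84 for 1438211_s_at. The order of the 4 groups was 0 Se liver, 0.1 Se liver, 0.1 Se lung and 0 Se lung, and the neighbours within a tissue did not differ past adjustment.

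Of the activators, Clock was lower in liver by 2 of its 3 tested probe sets. It averaged 9.20 ± 0.35 in 0.1 Se liver and 9.47 ± 0.08 in 0 Se liver, and 10.77 ± 0.24 in 0.1 Se lung and 11.02 ± 0.14 in 0 Se lung (SD, n = 3 each), which is -1.56 ± 0.12 SE or 2.95-fold lower in liver (limma adjusted p = 4.27e-09). Probe set 1418660_at gave -1.31 ± 0.11 (adjusted p = 1.46e-08) and 1435775_at -0.36 ± 0.17 (adjusted p = 0.0668). The probe sets of Clock thus differed in how far the tissues stood apart, and 1439314_at was blank on each liver array. Arntl was listed on 4 of 6 liver arrays and all lung arrays, and its highest liver value (7.58) lay below its lowest lung value (7.98). With blanks at the lowest value its difference was -1.24 ± 0.18 (adjusted p = 6.32e-05).

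Each of the period genes had at least 1 probe set that was lower in liver past adjustment. Per1 averaged 9.38 ± 0.09 in 0.1 Se liver and 9.11 ± 0.74 in 0 Se liver, and 10.61 ± 0.24 in 0.1 Se lung and 10.41 ± 0.82 in 0 Se lung (SD, n = 3 each), or -1.27 ± 0.25 SE (limma adjusted p = 0.000239). The first 0 Se lung array (9.51) lay within the liver range. Per3 was lower by 1421087_at (-0.56 ± 0.12, adjusted p = 0.000427) and by 1441445_at (-0.78 ± 0.15, adjusted p = 0.00019), but 1442243_at gave -0.18 ± 0.15 (adjusted p = 0.281) and turned to 0.02 after median centring. Another Per3 probe set, 1458176_at, was listed on 1 of 6 liver arrays and on all lung arrays. Per2 was lower by 1457350_at (-0.74 ± 0.21, adjusted p = 0.00415) and by 1417602_at (-0.45 ± 0.18, adjusted p = 0.0323), and this second call was lost after median centring (-0.25, adjusted p = 0.218). Its remaining probe set, 1417603_at, gave 0.21 ± 0.15 (adjusted p = 0.217), so the Per2 probe sets did not share a direction.

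By the brightest probe set of each gene, Cry1 had the smallest difference between the tissues, and Cry2 stood close to Per2 (-0.45 ± 0.18). Cry2 was lower in liver (-0.43 ± 0.13 SE, limma adjusted p = 0.00514), with 8.70 ± 0.24 in 0.1 Se liver and 8.92 ± 0.36 in 0 Se liver against 9.26 ± 0.06 in 0.1 Se lung and 9.22 ± 0.18 in 0 Se lung (SD, n = 3 each), and the call was lost after median centring (-0.23, adjusted p = 0.0954). Cry1 averaged 8.84 ± 0.25, 8.95 ± 0.11, 8.96 ± 0.22 and 8.92 ± 0.20 in the same order of groups, a difference of -0.05 ± 0.12 SE (adjusted p = 0.727), or 0.15 after median centring. Its 4 groups did not differ beyond their spread.

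**Figure D3:**
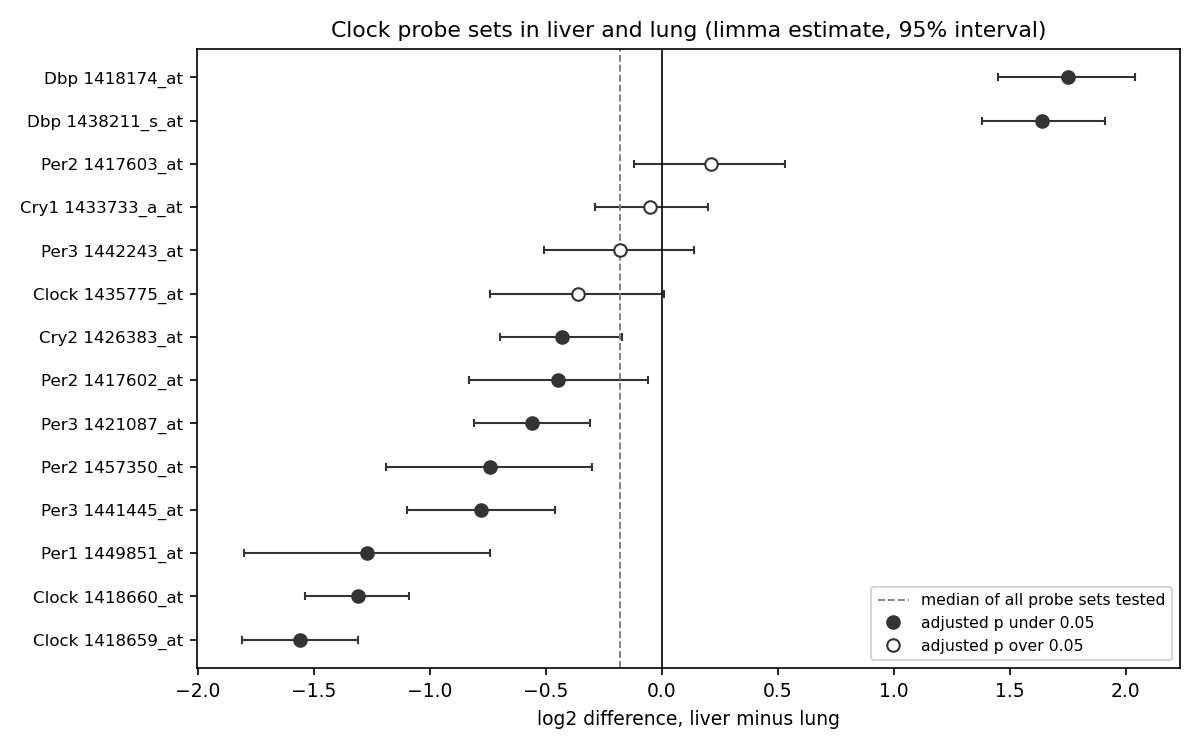
Log2 difference of liver minus lung (x axis) for the 14 member probe sets tested over the 12 arrays (rows, in order of size), with limma estimates as points, 95% intervals as bars, filled points for adjusted p under 0.05 and a dashed line at the median of all probe sets (-0.18). The Dbp probe sets lie at 1.75 and 1.64, and the lowest points are those of Clock (-1.56 and -1.31) and Per1 (-1.27).

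Arrays of one diet and tissue can differ in clock phase when tissues are taken at different hours, so the spread of the members over arrays was described. Per1 had the widest spread of the members in each tissue. Over the 6 liver arrays its log2 signal ran from 8.31 (0 Se, replicate 1) to 9.77 (0 Se, replicate 3), a range of 1.46 or 2.75-fold that exceeded the range of 98.3% of the 14759 probe sets listed on all liver arrays. In lung it ran from 9.51 to 11.10, on replicates 1 and 3 of 0 Se again, a range of 1.59 or 3.02-fold and above 99.2% of 20062 probe sets. The median range of all probe sets was 0.50 in liver and 0.45 in lung.

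By the brightest probe set of each gene, Dbp spanned 0.75 in liver (above 77.7% of all) and 1.19 or 2.29-fold in lung (above 97.3%), where the diets did not overlap. Per2 spanned 0.99 in liver (above 90.7%) and 0.78 in lung (above 86.7%), and in lung 1457350_at spanned 1.31 (above 98.2%). Arntl spanned 0.75 in lung (above 84.8%) and Clock 0.71 in liver and 0.63 in lung (above 74.9% and 75.2%). Among these brightest probe sets the narrowest ranges were those of Cry1, with 0.51 in liver and 0.44 in lung (above 50.3% and 49.4%), Per3 in lung with 0.48 and Cry2 in lung with 0.35 (above 33.1%). Other probe sets of a gene could differ: 1418660_at of Clock spanned 0.25 in lung (above 14.5%), and 1441445_at and 1460662_at of Per3 spanned 0.95 and 0.98 there.

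Phase agreement was read from deviations, the log2 signal of an array minus the mean over the arrays of its tissue. The targets Per1, Per2, Per3 and Dbp were averaged, though they need not peak at one hour. In liver their mean deviation was 0.06, -0.24 and 0.24 on the 0.1 Se arrays and -0.24, -0.01 and 0.19 on the 0 Se arrays. In lung it was 0.23, -0.12 and 0.28 with 0.1 Se and -0.43, -0.09 and 0.13 with 0 Se. In both tissues the third 0.1 Se array was the highest, with all 4 targets above the tissue mean. Within each diet the arrays ranked alike in liver and lung, with replicate 3 highest in both diets, and the lowest being replicate 2 with 0.1 Se and replicate 1 with 0 Se.

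The activators did not mirror these values in every array. In liver Clock deviated by -0.09, 0.20 and -0.50 with 0.1 Se and by 0.13, 0.22 and 0.05 with 0 Se, so that the 0.1 Se array with the highest targets had the lowest Clock and the one with the lowest targets had the highest Clock of its diet. On the 0.1 Se arrays of liver Arntl deviated by 0.34, 0.18 and -0.42 from its listed values, and was also lowest on the third. In lung Arntl deviated by -0.16, 0.23 and -0.30 with 0.1 Se and by 0.45, -0.18 and -0.03 with 0 Se. Its highest value fell on the array with the lowest targets and its lowest on the array with the highest. Clock in lung did not follow that order, with -0.41, 0.01 and 0.02 for 0.1 Se and -0.04, 0.20 and 0.22 for 0 Se.

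**Figure D4:**
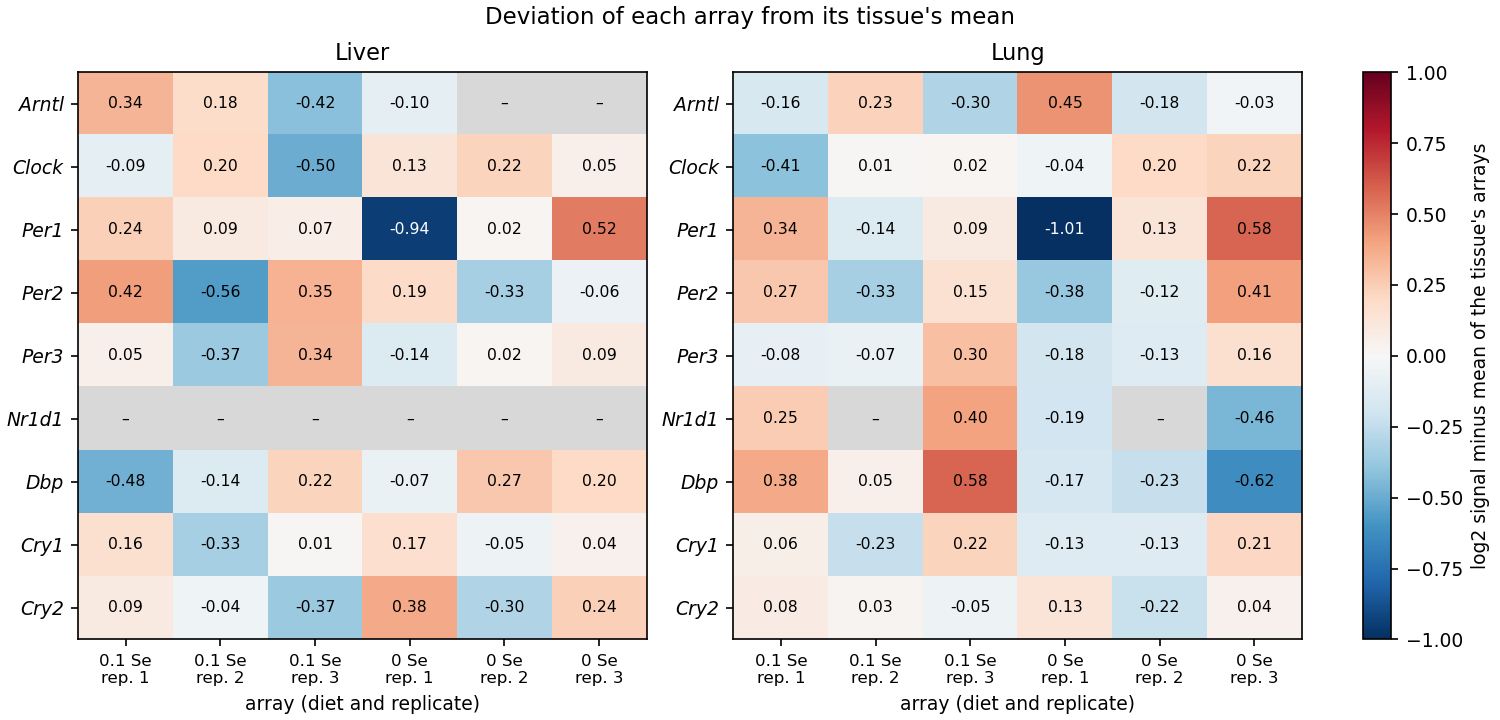
Deviation of each array (columns, 0.1 Se and then 0 Se, 3 replicates each) from the mean of its tissue, in log2 units, for 9 members (rows) in liver (left) and lung (right), with red above and blue below the mean and the value printed in each cell. Dashes mark blanks, and Nr1d1 in liver, which had 1 listed value; Per1 is lowest on the first 0 Se array in both tissues (-0.94 and -1.01) and highest on the third (0.52 and 0.58).

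Single targets did not keep one order, and whether they differ in peak hour was not tested. In 0 Se lung, Per1 was lowest and Per2 low on the first array (-1.01 and -0.38) and both were high on the third (0.58 and 0.41), whereas Dbp was lowest on the third (-0.62). In 0.1 Se liver, Per2 and Per3 were low on the second array (-0.56 and -0.37), while Dbp was lowest on the first (-0.48). The first 0.1 Se liver array paired the lowest Dbp with the highest Per2 (0.42). No array in either tissue therefore had all 4 targets below the mean except the first of 0 Se lung.

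Pairs of members were correlated over the 6 arrays of a tissue, in 49 relations, 21 in liver and 28 in lung. None passed adjustment by exact permutation (smallest adjusted p = 0.459 for Pearson's r and 0.79 for Spearman's rho). With 6 arrays no single relation could pass over 49 relations, whatever its strength, so the lack of a call decides nothing. The value of r was above 0 in 24 relations and below 0 in 24, with a median of 0. The pairs named next include the 4 with the smallest p and were chosen for it. In lung Per1 and Per2 had r = 0.84 (exact permutation p = 0.00972) and rho = 0.94 (p = 0.0167), and r = 0.88 without the 2 arrays farthest from the median of Per1, while in liver the pair had r = -0.15 (exact permutation p = 0.825, rho = 0.09 with p = 0.919). Per2 and Cry1 had r = 0.90 in lung (exact permutation p = 0.0375, rho = 0.77 with p = 0.103) and 0.87 without the 2 farthest arrays. In liver that pair had r = 0.85 (exact permutation p = 0.0194, rho = 0.71 with p = 0.136), with 0.30 without the 2 farthest arrays and 0.98 within diets. Per3 and Cry1 had r = 0.84 in lung (exact permutation p = 0.0347, rho = 0.66 with p = 0.175) and 0.16 without the 2 farthest arrays. For Arntl and Per1 in lung r was -0.77 (exact permutation p = 0.0667, rho = -0.43 with p = 0.419), -0.76 within diets, and 0.92 without the 2 arrays farthest on Arntl. Leaving out the farthest arrays leaves few arrays over a narrower range. It cannot show whether a relation or its sign rests on them.

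Arrays of the same number were then set side by side between liver and lung. For Per1 with 0 Se the deviations from the group mean were -0.81, 0.15 and 0.65 in liver and -0.91, 0.22 and 0.68 in lung. For Per2 with 0.1 Se they were 0.35, -0.63 and 0.28 in liver and 0.24, -0.36 and 0.12 in lung. Cry2 also kept its order in both diets, and Per3 with 0 Se. The order differed in the other 9 of 14 gene and diet combinations, Dbp included. With so few arrays an order can be kept by chance, and the share of all probe sets that kept theirs was not counted. Whether the members kept their order more or less often than other probe sets was therefore not tested. Over 13376 probe sets the correlation of same-numbered liver and lung deviations was 0, 0.02 and -0.04 with 0.1 Se and 0.11, 0.06 and 0.11 with 0 Se. For liver and lung arrays of different numbers it ran from -0.03 to 0.04 with 0.1 Se and from -0.09 to -0.01 with 0 Se.

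The wider clock network gave no call for diet. Of 18 clock modulators and second-loop genes, 10 were tested in liver and 11 in lung by their brightest probe set, and limma called 0 in each (median 0.15 and 0.05, beside 0 and -0.01 for all). Nfil3, a repressor that competes with DBP for D-boxes, read 9.96, 10.30 and 9.51 in 0.1 Se liver and 9.22, 8.88 and 9.04 in 0 Se liver. These arrays did not overlap, as in 12.2% of all probe sets listed on every liver array, and the difference was 0.88 ± 0.20 (1.83-fold, limma adjusted p = 0.441). Bhlhe40, a repressor that binds E-boxes, differed by 0.36 ± 0.18 in liver (adjusted p = 0.77), and the casein kinase Csnk1d by 0.22 ± 0.11 (adjusted p = 0.767). In lung Timeless, a replication fork protein, differed by 0.32 ± 0.10 (adjusted p = 0.426), and Hlf, a PAR bZIP factor like Dbp, by 0.33 ± 0.17 (adjusted p = 0.725). The casein kinase Csnk1e differed by -0.18 ± 0.10 in lung (adjusted p = 0.757), and Nr1d2 (Rev-erb beta), the nearest relative of Nr1d1, by 0.18 ± 0.14 (adjusted p = 0.83).

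Clock outputs were called in 0 of 9 tested in liver and 0 of 5 in lung, of 11 listed. In liver Cyp7a1, the rate-limiting enzyme of bile acid synthesis, read 12.51, 11.11 and 11.71 with 0.1 Se and 11.21, 11.33 and 10.69 with 0 Se, with overlap (0.70 ± 0.29, limma adjusted p = 0.732). Noct (nocturnin), a rhythmic protein of the deadenylase family, gave -0.53 ± 0.26 (adjusted p = 0.77). In lung Nampt, the enzyme of NAD salvage, gave 0.30 ± 0.10 (adjusted p = 0.457) and the deubiquitinase Usp2 -0.46 ± 0.31 (adjusted p = 0.801). Between the tissues the 5 outputs tested were called higher in liver, beside 33.9% of all probe sets called higher there and 81.6% called in either direction. They ran from Wee1, a cell cycle kinase (0.55 ± 0.15), and Alas1, of heme synthesis (1.06 ± 0.23), to Usp2 (2.51 ± 0.26) and Noct (3.36 ± 0.19, 10.3-fold). Of 9 modulators tested between the tissues, 6 were called, a smaller share than the 81.6% of all probe sets. With the deposited scaling, 3 were higher in liver (Bhlhe40 by 1.27 ± 0.12, Hlf by 0.53 ± 0.13 and Rora by 0.24 ± 0.09, the last within the range over which the scaling moved the median of all) and 3 lower (Csnk1e with -2.07 ± 0.13, Csnk1d with -1.08 ± 0.06 and Nr1d2 with -0.44 ± 0.09).

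Glucocorticoid hormones are secreted with a daily rhythm and induce Per1 through its promoter, so genes they induce were listed beside the clock. Whether these genes followed the hour or anything else that moves the hormones was not tested. In liver 0 of 6 and in lung 0 of 5 were called for diet, with medians of 0.10 and 0.35. Zbtb16, a zinc finger transcription factor, read 10.30, 9.74 and 10.26 in 0.1 Se liver and 9.18, 7.55 and 8.56 in 0 Se liver (1.67 ± 0.34, limma adjusted p = 0.416). In lung it read 10.37, 11.79 and 11.94 with 0.1 Se and 9.64, 9.24 and 10.33 with 0 Se (1.63 ± 0.37, adjusted p = 0.227). In both tissues each 0.1 Se array was above each 0 Se array. Of all probe sets listed on every array, 12.2% in liver and 12.9% in lung did not overlap between the diets. Fkbp5, a co-chaperone of the glucocorticoid receptor, read 11.25, 10.32 and 10.73 in 0.1 Se liver and 9.71, 9.94 and 10.67 in 0 Se liver, with overlap (0.66 ± 0.27, adjusted p = 0.704), and 9.95, 9.74 and 10.26 in 0.1 Se lung and 8.86, 8.78 and 9.66 in 0 Se lung, without overlap (0.89 ± 0.22, adjusted p = 0.298). The other 3 genes tested in both tissues (Tsc22d3, Sgk1 and Klf9) lay between 0.05 and 0.08 in liver and between -0.02 and 0.35 in lung. Between the tissues 1 of 5 was called higher in liver (Fkbp5, 0.89 ± 0.20) and 4 lower, Sgk1, a kinase, the furthest (-2.22 ± 0.11), beside 33.9% and 47.7% of all probe sets.

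The genes whose pattern over arrays was most like that of Dbp and Arntl were ranked by Pearson's r after the mean of each tissue had been subtracted, as a description. For Dbp, over 12 arrays and 12072 probe sets, they were Hbp1 (0.88), C1galt1c1 (0.85), Dkc1 (0.85), Fam32a (0.84) and Ugdh (0.84). For Arntl, over the 10 arrays where it was listed, they were Sbf2 (0.95), Letmd1 (0.91), Nme1 (0.91), Brd1 (0.90) and Acss2 (0.90). No other member was among them.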

How the data were processed

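Liver and lung RNA of male mice on 0.1 Se and 0 Se diets was hybridized to Affymetrix mouse genome arrays (12 arrays, 4 groups of 3). The authors computed MAS5 signals, scaled each array by itself and left out absent calls, and the deposited values are log2 of these signals (affy 1.36.0 under R 2.15.2, by the submitters' processing notes). Blanks made up 31.8% of cells, and 2070 probe sets were blank on every array. Values were used as deposited. The 58 control probe sets were left out. Genes were named from the platform annotation, and 24434 of 24504 probe sets of a single gene matched a RefSeq gene through the Entrez number. Promoter sequences are from RefSeq.

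Probe sets with at least 2 values in each group compared were tested with limma 3.58.1 in R 4.3.3 (lmFit and eBayes with a trend; data.table package, version 1.17.8), with Benjamini-Hochberg adjustment over all probe sets and a threshold of 0.05. Alternatives were the methods' t-test, other filters, scalings and eBayes settings, weighting of arrays, a replicate block and leaving out each array in turn, and the scripts were tested on simulated data. The members, the lists and the tests were chosen with earlier results of these data known. All members are named, and of the other lists the genes past the threshold and up to 4 with the smallest p. The precision is limited by the number of arrays. The labels do not say whether same-numbered liver and lung arrays share a mouse, so the number was a block only in alternatives.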

Additional observations from a re-analysis of the deposited data

How the results depend on the processing

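For the diets no member probe set was called under any limma alternative. In lung 1 member passed the methods' unadjusted t-test. Signs of small differences turned: with array weights Per3 1421087_at in liver was -0.03 and Clock 1435775_at 0.03, and without single arrays the liver values ran from -0.04 to 0.45 (Per2 1417602_at), -0.25 to 0.28 (Per2 1457350_at), -0.35 to 0.03 (Dbp 1418174_at), -0.15 to 0.20 (Per3 1421087_at), -0.21 to 0.03 (Cry1), -0.39 to 0.17 (Clock 1435775_at) and -0.14 to 0.59 (Per1). In lung they ran from -0.12 to 0.28 (Per2 1417602_at), -0.63 to 0.03 (Per2 1457350_at), -0.03 to 0.20 (Per3 1421087_at), -0.31 to 0.03 (Arntl), -0.07 to 0.11 (Cry2), -0.06 to 0.16 (Cry1) and -0.26 to 0.54 (Per1). Between liver and lung, median centring gave 0.15 for Cry1 and 0.02 for Per3 1442243_at, Cry1 ran from -0.11 to 0.02 without single arrays, and 6 genes were called with 1 probe set a gene. The call of Per2 1417602_at between the tissues was lost without 0 Se liver replicate 2 or 3, 0.1 Se liver replicate 2, 0 Se lung replicate 3, or 0.1 Se lung replicate 1 or 3 (-0.45 to -0.29).

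Counts over all probe sets moved more. In liver 2 were called, against 8 with no filter and blanks at the lowest value, 1 with values on every array, 0 with a mean signal above the median, blanks alone at the lowest value, no trend or the replicate block, 13 in one fit of the 12 arrays and 0 by the methods' t-test after adjustment, and from 0 (without 0 Se liver replicate 1 or 3) through 1 (without 0 Se liver replicate 2) to 9 (without 0.1 Se liver replicate 1). In lung 20 were called, against 4 with no filter and blanks at the lowest value, 9 with a mean signal above the median, 8 with blanks alone at the lowest value, 10 after quantile normalization, 0 with no trend, 13 with a robust trend, 54 with array weights, 53 with the replicate block and 0 by the methods' t-test after adjustment, and from 0 (without replicate 2 of either diet) through 4 (without 0 Se lung replicate 3) to 75 (without 0.1 Se lung replicate 1). For the difference between tissues 0 were called, against 44 with no filter and blanks at the lowest value, 3 with the replicate number as a block within each diet (an alternative chosen after seeing the data) and 0 to 3 without single arrays (1 without 0.1 Se liver replicate 2, 3 without 0 Se lung replicate 1). Between liver and lung 12326 were called, against 19731 with no filter and blanks at the lowest value. The filter was not dropped without filling the blanks, and the causes were not tested. Same-numbered arrays of the diets correlated at -0.19, -0.03 and -0.01 in liver and 0.15, -0.17 and -0.02 in lung, and the replicate block called no member for diet. Blanks limit Npas2 and Nr1d1 in both tissues and Arntl most in liver. Arntl in liver and the 1 Npas2 value lie near the lowest listed signal. In lung the listed values of Nr1d1 (7.46 to 8.32) lie above the lowest value of the table (6.64). Filling its blanks with that lowest value therefore sets them below every listed Nr1d1 value.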
